A study of Mus musculus with 6 samples.

Results

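The CXCL12 receptor axis was followed through 9 genes, the receptor gene Cxcr4, the ligand gene Cxcl12, the decoy receptor gene Ackr3, the ligand gene Mif, the protease gene Dpp4, the arrestin genes Arrb1 and Arrb2 and the G protein genes Gnai2 and Gnai3. They were taken by symbol from a table of 55401 mouse genes, and all 9 were present and passed the filter on low values. Messenger RNA had been sequenced from mouse hepatic stellate cells, the liver pericytes that become collagen-producing myofibroblasts in culture. Of the 6 libraries, 3 came from mice heterozygous for S100a16 (S100a16+/-, titled S100KD) and 3 from wild type (WT) mice, both on the C57BL/6J background, and every culture was kept in medium with fetal bovine serum for 7 days with no other agent. S100a16 encodes a small calcium-binding protein. The series title ties S100a16 loss to Cxcr4 expression, which is the question put to these genes here. The sources used here do not say how the S100a16 allele was made, the age or sex of the mice, or whether replicates were separate animals or cultures. Each p-value therefore reflects only how these libraries vary, which may be technical.

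CXCL12 is a chemokine that binds 2 receptors. CXCR4 couples to inhibitory G proteins, which carry the signal to migration and survival. ACKR3 recruits arrestins, and it takes up and clears CXCL12 without G protein signalling. In the liver CXCL12 is known from stellate and endothelial cells, and CXCR4 from endothelial cells, leukocytes and activated stellate cells. MIF is a cytokine that also binds CXCR4, and DPP4 removes the end of CXCL12 that activates the receptor.

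The promoters of the genes for the ligand and its receptors are shown because these 3 had the largest differences with groups apart. Each is the stretch of 250 bases before the RefSeq start (RefSeq, build GRCm38.p6), 5′ to 3′ on the strand of the gene. Capitals mark the TATA box letters TATAAA, the GC box letters GGGCGG and the NRF1 core letters TGCGCA, which read the same on both strands. Both strands were searched, so a match on the other strand reads TTTATA or CCGCCC.
Cxcr4 (chr1:128592300-128592549, minus strand): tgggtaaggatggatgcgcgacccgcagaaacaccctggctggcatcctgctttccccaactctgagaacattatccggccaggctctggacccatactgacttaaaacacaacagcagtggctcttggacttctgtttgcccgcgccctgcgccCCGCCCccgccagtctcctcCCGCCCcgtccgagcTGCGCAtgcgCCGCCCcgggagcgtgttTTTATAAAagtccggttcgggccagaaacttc
Cxcl12 (chr6:117168285-117168534, plus strand): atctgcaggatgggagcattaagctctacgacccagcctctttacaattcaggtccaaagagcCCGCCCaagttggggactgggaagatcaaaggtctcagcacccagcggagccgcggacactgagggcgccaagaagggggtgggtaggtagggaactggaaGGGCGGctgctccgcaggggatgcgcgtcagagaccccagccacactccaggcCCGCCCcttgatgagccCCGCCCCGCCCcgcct
Ackr3 (chr1:90203730-90203979, plus strand): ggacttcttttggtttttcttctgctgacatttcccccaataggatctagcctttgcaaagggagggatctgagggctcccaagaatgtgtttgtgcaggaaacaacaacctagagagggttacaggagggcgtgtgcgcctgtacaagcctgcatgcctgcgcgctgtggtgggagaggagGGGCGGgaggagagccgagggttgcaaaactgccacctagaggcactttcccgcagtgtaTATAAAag
The Cxcr4 stretch holds an NRF1 core 60 to 55 bases before the start, 3 GC boxes and a pair of overlapping TATA box matches, 1 on each strand, 32 to 25 bases before the start. The Cxcl12 stretch holds 5 GC boxes, of which the last 2 share 1 base, and no TATAAA, and the Ackr3 stretch holds 1 GC box and 1 TATA box match 8 to 3 bases before its start. Of 32841 RefSeq promoters of this length, 12.4% hold TATAAA, 32.7% GGGCGG and 6.43% TGCGCA. GC content was 61.2% for Cxcr4, 64.4% for Cxcl12 and 54.0% for Ackr3, against a median of 52.4% over all promoters. A match of letters is a description and not a binding site. The hypoxia response core ACGTG, held by 16.6% of promoters, was in none of the 3, and 6 of the 9 genes had an entry in the RefSeq promoter table.

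Levels are given as FPKM, the authors' deposited values scaled to gene length and library size, and changes as log2 S100a16+/- over WT from an edgeR quasi-likelihood fit to the deposited counts of 12766 genes. A gene was called at a Benjamini-Hochberg adjusted p under 0.05. Library totals ran from 61979103 to 70896338 counts in S100a16+/- and from 65880770 to 76291481 in WT. S100a16 itself had 18.0, 17.7 and 30.0 FPKM in S100a16+/- replicates 1 to 3, against 57.7, 58.8 and 56.8 FPKM in WT replicates 1 to 3, so the groups were apart. S100a16+/- replicate 3 stood apart from its group, with correlations of log2(FPKM + 1) across genes of 0.930 and 0.929 with replicates 1 and 2, which correlated at 0.987 with each other, while WT libraries correlated at 0.981 to 0.985. Among stellate markers Lrat was at 0.052 FPKM or below in every library, and Rgs5, Colec11 and Reln were also below the filter. The summed FPKM of 12 stellate markers came to 855, 822 and 106 in S100a16+/- replicates 1 to 3, against 716, 797 and 806 in WT. That of 12 macrophage markers was 16482, 17714 and 12477, against 9876, 10204 and 9676, so macrophage transcripts were abundant in all 6 bulk libraries. Fewer cells of a type and less RNA per cell cannot be told apart in such samples. Tests of the 9 genes whose call depended on S100a16+/- replicate 3 are given with and without that library.

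Of the 9 genes, Ackr3 alone was called with all 6 libraries, and it fell, where 1.61% of all genes tested were called lower, 2.85% higher and 4.46% either way. The FPKM groups of Ackr3, Cxcl12, Cxcr4 and Gnai2 did not overlap, all of them lower in S100a16+/-, against 18.9% of genes tested that were lower with groups apart, 12.5% higher and 31.4% either way. The median log2 change was -0.19 over the 9 genes and 0.00 over all genes tested. Without S100a16+/- replicate 3, the genes called were Cxcr4, Cxcl12, Ackr3, Dpp4 and Gnai2, which were lower, and Mif, which was higher. In that comparison 16.5% of all genes were called lower and 15.8% higher, 32.3% in all. Without WT replicate 1 none of the 9 was called by edgeR, where 0.286% of all genes were called. In that fit 2 of the 9 had an unadjusted p under 0.05, as had 1889 of all 12569 genes. DESeq2 called Ackr3 and Cxcl12, where it called 14.8% of all genes.

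**Figure D1:**
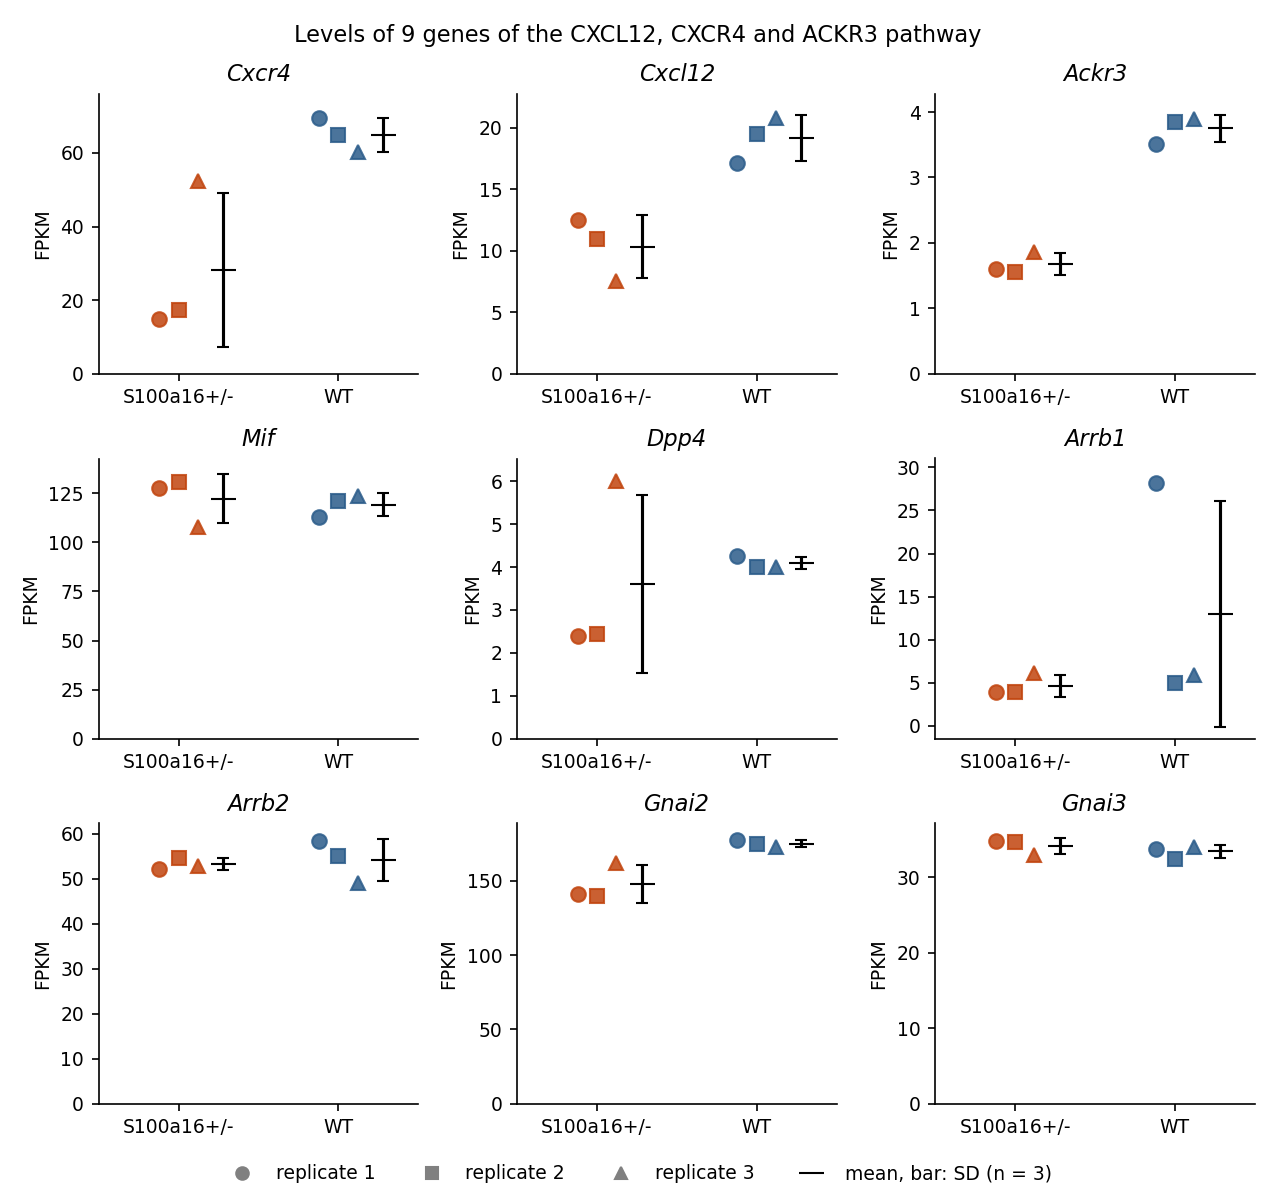
FPKM of the 9 genes in each library (points, S100a16+/- left and WT right in each panel), with group mean and SD (bars, n = 3 each) and a linear axis for each gene. Cxcl12 and Ackr3 are low in all 3 S100a16+/- libraries, Cxcr4 is far lower in 2 of them (14.9 and 17.3 FPKM) than in the other (52.4 FPKM), and 1 WT library stands high for Arrb1 (28.1 FPKM).

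The ligand gene Cxcl12 (ENSMUSG00000061353, chromosome 6, 117168535 to 117181367, plus strand) had 12.5, 10.96 and 7.52 FPKM in S100a16+/- replicates 1 to 3, against 17.1, 19.5 and 20.8 FPKM in WT replicates 1 to 3. Each S100a16+/- library was below each WT library, and replicate 3 was the lowest. The means were 10.3 ± 2.54 FPKM in S100a16+/- and 19.2 ± 1.86 FPKM in WT (SD, n = 3 each), that is 53.9% of the WT level. The log2 change was -0.84 ± 0.20 (SE), which did not pass (edgeR adjusted p = 0.0824). With S100a16+/- replicate 3 left out, Cxcl12 was at -0.64 and was called (edgeR adjusted p = 0.00572), as it was at -0.84 with all libraries in DESeq2 (adjusted p = 0.00253). An exact two-sided permutation test of the FPKM gave p = 0.1, the smallest that 3 libraries against 3 allow, for this gene and likewise for Cxcr4, Ackr3 and Gnai2.

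The second ligand gene, Mif (ENSMUSG00000033307, chromosome 10, 75859353 to 75860240, minus strand), encodes an abundant cytokine. It had 127.9, 130.7 and 107.9 FPKM in S100a16+/-, against 112.9, 121.3 and 123.6 FPKM in WT. The groups overlapped, and its log2 change was 0.09 ± 0.10 (SE; edgeR adjusted p = 0.664). Without S100a16+/- replicate 3 it was 0.18 (edgeR adjusted p = 0.0469). The FPKM ratio of Mif to Cxcl12 within a library was 10.2, 11.9 and 14.3 in S100a16+/-, against 6.58, 6.22 and 5.94 in WT. This ratio was higher in every S100a16+/- library, by 0.95 on the log2 scale (exact two-sided permutation p = 0.1, adjusted p = 0.35 over 7 ratios).

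The receptor gene Cxcr4 (ENSMUSG00000045382, chromosome 1, 128588199 to 128592293, minus strand) had 14.9, 17.3 and 52.4 FPKM in S100a16+/- replicates 1 to 3, against 69.4, 64.9 and 60.2 FPKM in WT replicates 1 to 3. The counts behind these were 2113, 2428 and 6499, against 9179, 9946 and 8776. Relative to the average WT library these were levels of 22.9%, 26.6% and 80.9%, so replicate 3 was nearer to the WT libraries than to the other two. The means were 28.2 ± 21.03 FPKM in S100a16+/- and 64.8 ± 4.61 FPKM in WT (SD, n = 3 each). The fitted log2 change was -1.16 ± 0.49 (SE) and Cxcr4 was not called (edgeR adjusted p = 0.241). Without S100a16+/- replicate 3 it was -1.95 ± 0.10 (SE) and passed (edgeR adjusted p = 0.000173).

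The decoy receptor gene Ackr3 (ENSMUSG00000044337, chromosome 1, 90203980 to 90216751, plus strand) had 1.60, 1.55 and 1.86 FPKM in S100a16+/- replicates 1 to 3, against 3.51, 3.85 and 3.89 FPKM in WT replicates 1 to 3. The groups were well apart, and S100a16+/- replicate 3 lay close to the other libraries of its group. The means were 1.67 ± 0.166 FPKM in S100a16+/- and 3.75 ± 0.207 FPKM in WT (SD, n = 3 each), 44.6% of the WT mean, from counts of 405 to 429 in S100a16+/- and 861 to 1094 in WT. Ackr3 fell by 1.11 ± 0.11 (SE) on the log2 scale (edgeR adjusted p = 0.0118), and by 1.18 without S100a16+/- replicate 3 (edgeR adjusted p = 0.000696). With any other library left out the log2 change stayed between -1.16 and -1.07, but the call was lost, at edgeR adjusted p of 0.0671 without S100a16+/- replicate 1, 0.0740 without S100a16+/- replicate 2, 0.0731 without WT replicate 1, 0.0943 without WT replicate 2 and 0.0924 without WT replicate 3.

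**Figure D2:**
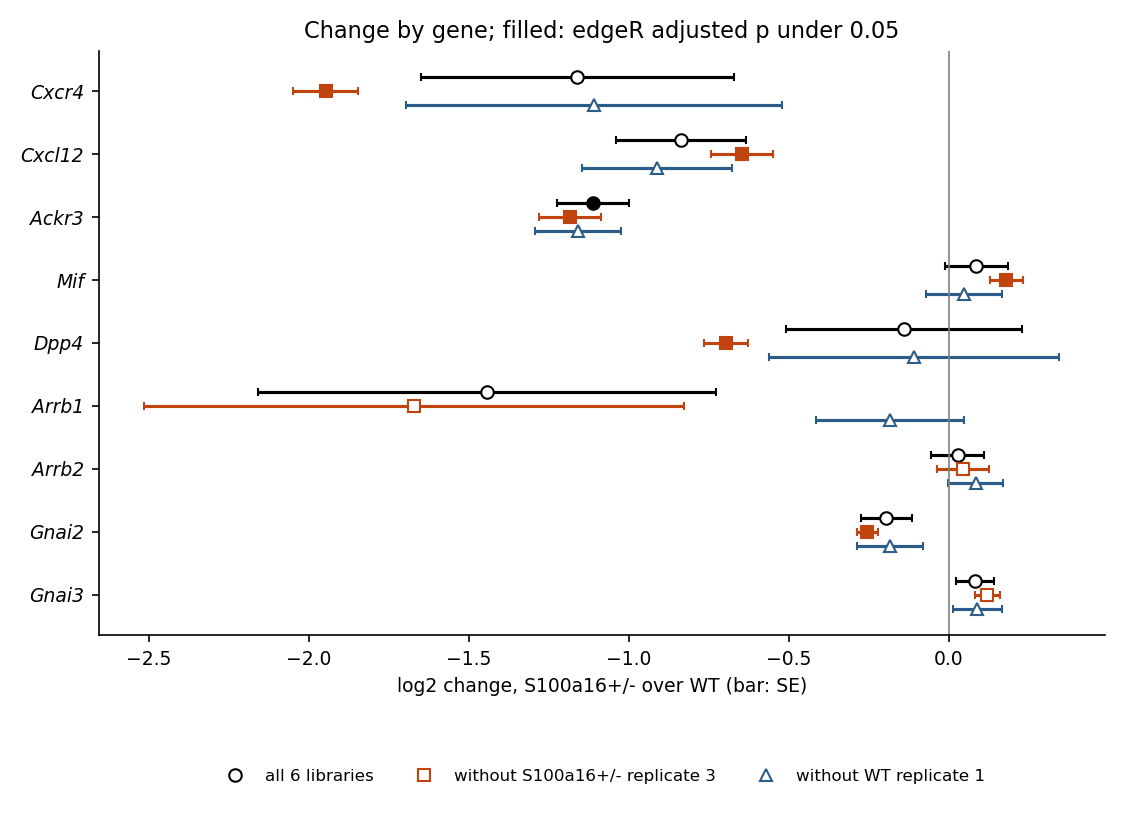
Log2 change, S100a16+/- over WT, with its SE (bars) for each of the 9 genes, from edgeR fits with all 6 libraries (circles), without S100a16+/- replicate 3 (squares) and without WT replicate 1 (triangles), filled where the adjusted p was under 0.05. With all libraries only Ackr3 is filled; without S100a16+/- replicate 3 Cxcr4 is at -1.95, and without WT replicate 1 Arrb1 is at -0.18.

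The receptor and decoy genes did not keep one ratio across the S100a16+/- libraries. The FPKM ratio of Cxcr4 to Ackr3 was 9.27, 11.1 and 28.1 in S100a16+/- replicates 1 to 3, against 19.8, 16.8 and 15.5 in WT. The ratio of Cxcl12 to Cxcr4 was 0.840, 0.635 and 0.144 in S100a16+/-, against 0.247, 0.301 and 0.346 in WT. In both, S100a16+/- replicate 3 lay on the other side of the WT range from replicates 1 and 2, so the groups overlapped (exact permutation p = 0.7 and 0.5). The ratio of Cxcl12 to Ackr3 was 7.79, 7.05 and 4.04 in S100a16+/-, against 4.88, 5.07 and 5.35 in WT, and overlapped in the same way (exact permutation p = 0.4).

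Dpp4 (ENSMUSG00000035000, chromosome 2, 62330073 to 62412231, minus strand), the gene for the membrane protease that inactivates CXCL12, had 2.39, 2.44 and 6.00 FPKM in S100a16+/-, against 4.26, 4.01 and 4.00 FPKM in WT. As for Cxcr4, replicates 1 and 2 were below all WT libraries, but replicate 3 was above them. The log2 change was -0.14 ± 0.37 (SE) with all libraries (edgeR adjusted p = 0.865) and -0.70 without S100a16+/- replicate 3 (edgeR adjusted p = 0.00126). The FPKM ratio of Cxcl12 to Dpp4 was 5.22, 4.50 and 1.25 in S100a16+/-, against 4.03, 4.86 and 5.20 in WT (exact permutation p = 0.7).

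The arrestins bind activated receptors and end G protein coupling, and both ACKR3 and CXCR4 recruit them. Arrb1 (ENSMUSG00000018909, chromosome 7, 99535466 to 99606771, plus strand) had 3.91, 3.91 and 6.10 FPKM in S100a16+/- replicates 1 to 3, against 28.1, 4.97 and 5.93 FPKM in WT replicates 1 to 3. WT replicate 1 stood far above the other libraries, which overlapped between the groups. The log2 change was -1.44 ± 0.72 (SE) with all libraries (edgeR adjusted p = 0.310) and -0.18 without WT replicate 1 (edgeR adjusted p = 0.757). Arrb2 (ENSMUSG00000060216, chromosome 11, 70432635 to 70440828, plus strand) was the more abundant arrestin gene in every library, at 52.3, 54.7 and 52.9 FPKM in S100a16+/-, against 58.3, 55.1 and 49.1 FPKM in WT. Its groups overlapped and its log2 change was 0.03 ± 0.08 (SE; edgeR adjusted p = 0.878). The FPKM ratio of Arrb2 to Arrb1 was 13.4, 14.0 and 8.68 in S100a16+/-, against 2.07, 11.1 and 8.27 in WT (exact permutation p = 0.2).

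Gnai2 and Gnai3 encode inhibitory G protein alpha subunits through which CXCR4 signals. Gnai2 (ENSMUSG00000032562, chromosome 9, 107614125 to 107635367, minus strand) was the most abundant of the 9 genes, at 141, 140 and 162 FPKM in S100a16+/-, against 178, 175 and 173 FPKM in WT. Every S100a16+/- library was below every WT library, but Gnai2 was not called, with a fitted log2 value of -0.19 ± 0.08 (SE; edgeR adjusted p = 0.227). Without S100a16+/- replicate 3 it was -0.25 (edgeR adjusted p = 0.00370). Gnai3 (ENSMUSG00000000001, chromosome 3, 108107280 to 108146146, minus strand) had 34.8, 34.7 and 32.9 FPKM in S100a16+/-, against 33.7, 32.5 and 34.0 FPKM in WT. Its groups overlapped, and its log2 change was 0.08 ± 0.06 (SE; adjusted p = 0.488 by edgeR). The FPKM ratio of Gnai2 to Gnai3 was 4.05, 4.03 and 4.93 in S100a16+/-, against 5.27, 5.39 and 5.08 in WT, so the groups were apart by -0.28 on the log2 scale (exact two-sided permutation p = 0.1, adjusted p = 0.35 over 7 ratios).

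By mean FPKM, which is per length, the order in S100a16+/- was Gnai2, Mif, Arrb2, Gnai3, Cxcr4, Cxcl12, Arrb1, Dpp4 and Ackr3. In WT it was Gnai2, Mif, Cxcr4, Arrb2, Gnai3, Cxcl12, Arrb1, Dpp4 and Ackr3. Cxcr4 was thus the fifth gene in S100a16+/- and the third in WT. Neighbours whose libraries overlapped were Gnai3 with Cxcr4 and Arrb1 with Dpp4 in S100a16+/-, and Cxcl12 with Arrb1 in WT. All other neighbours were apart.

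The genes nearest to Cxcr4, Cxcl12 and Ackr3 were found by the root mean square difference over the 6 libraries of log2(FPKM + 1) less the WT mean of the gene. The search covered 6793 tested genes with a mean of at least 5 FPKM. Symbols made of Gm and digits, or ending in Rik or in -ps with or without digits, were left out. The 5 nearest to Cxcr4 were Adamdec1, Abcg3, Ulbp1, Lyve1 and Asb2, at differences of 0.0904 to 0.171. Adamdec1, the gene of a secreted metalloprotease, had 10.4, 11.3 and 34.8 FPKM in S100a16+/-, against 44.4, 45.2 and 46.7 FPKM in WT. Lyve1, a hyaluronan receptor gene of sinusoidal and lymphatic endothelium, had 31.9, 27.4 and 106 FPKM in S100a16+/-, against 126, 117 and 123 FPKM in WT. All 5 were lowest in S100a16+/- replicates 1 and 2 and between those and WT in replicate 3.

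The 5 nearest to Cxcl12 were Plk1, Ube2c, Cdc20, Igfbp4 and Prss23, at differences of 0.0700 to 0.148. The first 3 act in mitosis: Plk1 encodes a kinase, Ube2c a ubiquitin-conjugating enzyme and Cdc20 an activator of the anaphase-promoting complex. Plk1 had 7.95, 7.26 and 4.98 FPKM in S100a16+/-, against 11.4, 11.9 and 12.9 FPKM in WT, lowest in S100a16+/- replicate 3 as was Cxcl12. The 5 nearest to Ackr3 were Pdgfc, Sema6d, Nrep, Bgn and Pald1, at differences of 0.0523 to 0.110. Ackr3 itself was below 5 FPKM in every library, so the added 1 shrank its differences more than those of higher genes. In limma its log2 change was -1.12 with 0.1 added to the FPKM and -0.83 with 1 added. Its nearest genes can therefore have smaller changes in FPKM than Ackr3. Pdgfc, a growth factor gene, had 4.95, 4.51 and 5.70 FPKM in S100a16+/-, against 9.72, 10.3 and 9.67 FPKM in WT. Bgn, the gene of the matrix proteoglycan biglycan, had 153, 156 and 172 FPKM in S100a16+/-, against 273, 262 and 258 FPKM in WT. Nearness over 6 libraries that share their genotype groups is a description of level and not of shared control.

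**Figure D3:**
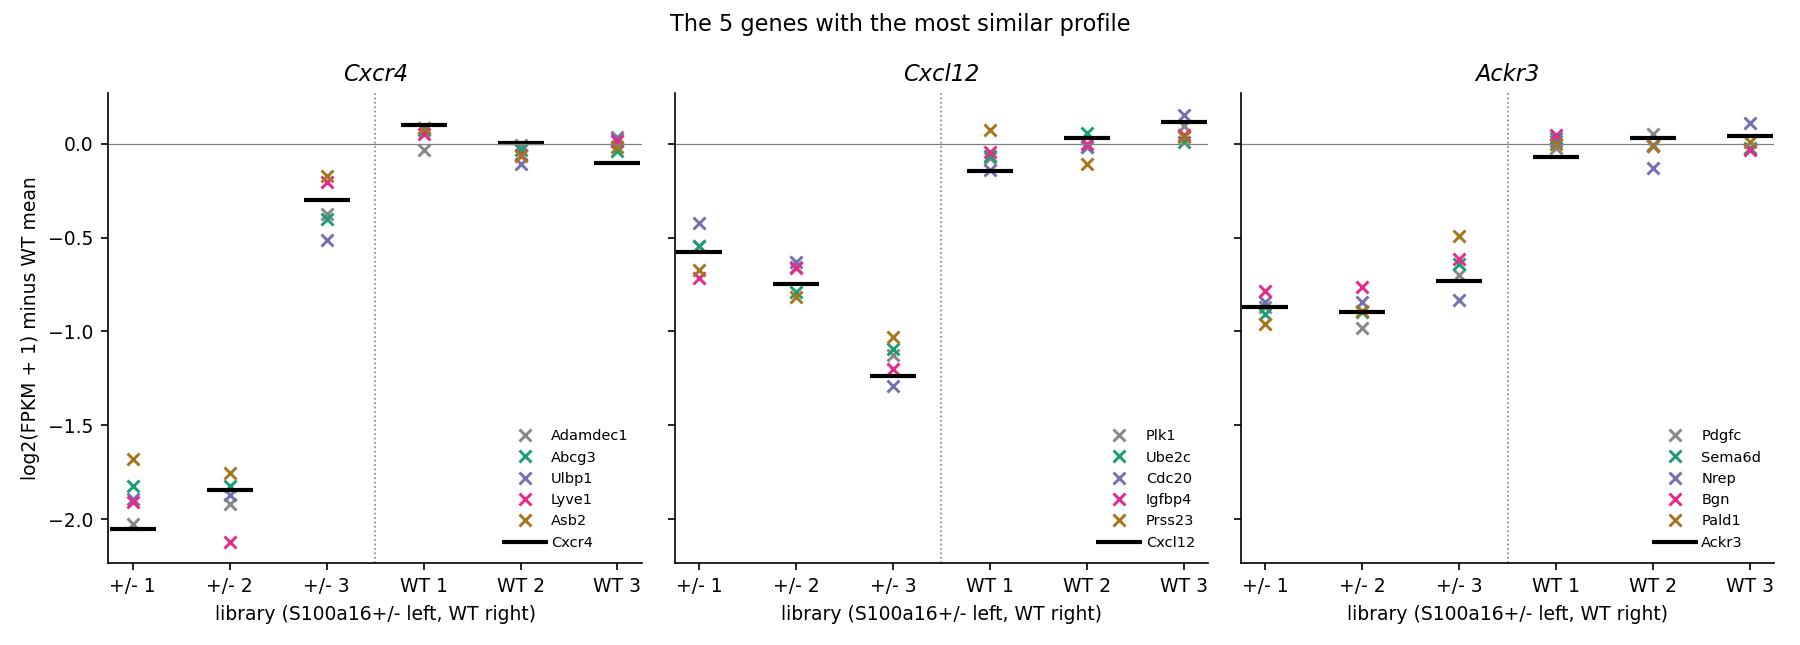
Log2(FPKM + 1) minus the WT mean of each gene, by library (S100a16+/- left, WT right), for Cxcr4, Cxcl12 and Ackr3 (black bars) and the 5 genes nearest to each (crosses). The 3 genes differ in S100a16+/- replicate 3, where Cxcr4 and its neighbours lie near WT, Cxcl12 and its neighbours lie lowest, and Ackr3 and its neighbours lie close to the level of the other S100a16+/- libraries.

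Summed markers of several other cell types were, like Cxcr4, lower in S100a16+/- replicates 1 and 2 than in replicate 3. The summed FPKM of 12 endothelial markers came to 853, 817 and 1983 in S100a16+/- replicates 1 to 3, against 1856, 1717 and 1738 in WT. Taken as log2 differences from the WT mean, their medians were -1.18, -1.22 and 0.11 in the same S100a16+/- libraries. Of the 11 that were tested, 0 were called with all libraries in edgeR and 2 had an unadjusted p under 0.05, as had 2807 of all 12766 genes. When S100a16+/- replicate 3 was left out, 10 of the 11 were called lower, against 16.5% of all genes. Clec4g was below the filter.

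The summed FPKM of 10 hepatocyte markers was 149, 147 and 596 in S100a16+/- replicates 1 to 3, against 260, 254 and 224 in WT. Markers of T and NK cells were scarce, with a sum over 7 genes of 1.66, 1.89 and 6.86 FPKM in S100a16+/-, against 7.75, 8.01 and 7.48 FPKM in WT. Most of that sum was Cd4, the 1 gene of the list that passed the filter, while Cd3e, Cd3d and Cd8a were at or near 0 in every library. The part of these cell types in the Cxcr4 level was not tested.

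As a measure chosen after the values were seen, the FPKM of Cxcr4 was divided by that of each of the 11 tested markers. The ratio to Cdh5, the gene of the endothelial junction cadherin, was 0.0512, 0.0610 and 0.0564 in S100a16+/-, against 0.0993, 0.103 and 0.0916 in WT. That to Lyve1 was 0.466, 0.631 and 0.495 in S100a16+/-, against 0.548, 0.554 and 0.488 in WT, and that to Stab2, a scavenger receptor gene of sinusoidal endothelium, was 0.298, 0.400 and 0.285, against 0.343, 0.368 and 0.338. The ratio of Cxcr4 to the marker was lower in every S100a16+/- library than in every WT library for 7 markers and overlapped for 4 (Lyve1, Stab2, Emcn and Oit3). That to Oit3 was 0.0822, 0.101 and 0.707 in S100a16+/- replicates 1 to 3, against 0.405, 0.376 and 0.387 in WT. That to Emcn was 0.152, 0.180 and 0.352, against 0.391, 0.336 and 0.335. These 2 overlapped only through S100a16+/- replicate 3, and the mean for Oit3 hides this split. The log2 difference ran from -1.11 for Oit3 to -0.01 for Lyve1, with a median of -0.73. What part endothelial cells have in the Cxcr4 level was not tested. Divided by 8 stellate markers, Cxcr4 was lower for 1 and overlapped for 7, with a median log2 difference of -0.90. This median hides a split within S100a16+/-. The ratio to Col1a1 was 0.0732, 0.0916 and 2.44 in S100a16+/- replicates 1 to 3, against 0.363, 0.322 and 0.272 in WT. That to Dcn was 0.729, 0.816 and 4.32, against 4.34, 3.33 and 3.18. Replicate 3 thus lay above WT for Col1a1 and within the WT range for Dcn. Divided by 12 macrophage markers, Cxcr4 was lower for 10 and overlapped for 2, with a median of -1.79. Cxcr4 itself was lower in every S100a16+/- library, and 3 of these 12 markers had log2 changes below 0. A gene of even level would thus also give a lower ratio. Such ratios were not taken over all genes, so the counts above have no background share.

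**Figure D4:**
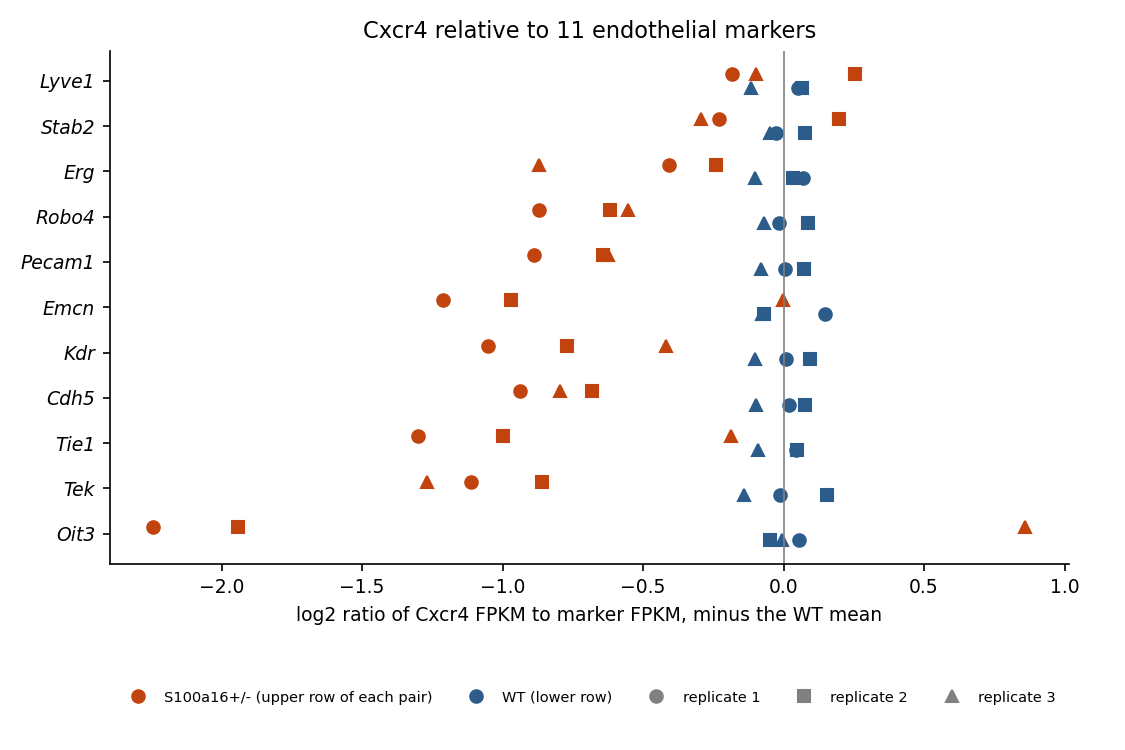
Log2 of the FPKM ratio of Cxcr4 to each of 11 endothelial markers, minus the WT mean of that ratio, for each library (S100a16+/- in the upper row of each pair, WT in the lower row, marker shape by replicate). Relative to Lyve1 and Stab2 the groups overlap, while relative to Cdh5, Pecam1, Tek and 4 others every S100a16+/- library lies below the WT libraries.

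Divided in the same way, Cxcl12 overlapped between the groups for all 11 endothelial markers, and for 6 of 8 tested stellate markers, and was lower for the other two. Ackr3 was lower for 3 of 11 endothelial and 2 of 8 stellate markers and overlapped for the rest. An overlap did not mean that the ratios were alike. The ratio of Cxcl12 to Cdh5 was 0.0430, 0.0388 and 0.00809 in S100a16+/- replicates 1 to 3, against 0.0246, 0.0311 and 0.0317 in WT. That to Col1a1, a stellate marker, was 0.0615, 0.0581 and 0.351, against 0.0898, 0.0968 and 0.0942. In both, S100a16+/- replicate 3 lay on the other side of the WT range from replicates 1 and 2. The stellate marker sum was lowest in S100a16+/- replicate 3, as was Cxcl12, and the part of either cell type in these levels was not tested. Summed FPKM of 6 mesothelial markers, another possible source of Cxcl12, was 78.9, 77.9 and 36.2 in S100a16+/-, against 68.9, 93.0 and 96.5 in WT.

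Around the 9 genes, 103 other genes of the pathway were in the table, on lists drawn up with earlier results of these data known, and 89 were tested. Of these, 4 rose and 1 fell (5.62%, against 4.46% of all genes tested). Without S100a16+/- replicate 3 these counts were 30 and 19 (55.1%, against 32.3% of all genes).

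Among the other MIF genes, 1 of 3 tested fell, where 1.61% of all genes tested were called lower. This was Cd74, which encodes the MIF receptor chain that is also the class II invariant chain. It had 90.7, 91.8 and 86.8 FPKM in S100a16+/-, against 260, 252 and 249 FPKM in WT, so its change, in log2 terms, was -1.45 ± 0.07 (SE; adjusted p = 0.00133 by edgeR). Cd74 was equally low in S100a16+/- replicate 3, unlike Cxcr4, and passed with each library left out in turn. Cxcr2, the gene of another chemokine receptor that MIF binds, was below the filter.

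Among 28 downstream signalling genes, 2 rose, where 2.85% of all genes tested were called higher. Pik3r5, the regulatory subunit gene of the PI3-kinase that G proteins activate, had 27.6, 28.3 and 27.4 FPKM in S100a16+/-, against 15.3, 15.8 and 13.7 FPKM in WT (log2 change 0.95 ± 0.07, SE, edgeR adjusted p = 0.00622, and 0.0573 without WT replicate 1). Vav1, an exchange factor gene for Rac in blood cells, had 37.9, 36.8 and 38.5 FPKM in S100a16+/-, against 29.4, 30.1 and 27.8 FPKM in WT (log2 change 0.43 ± 0.06, SE, edgeR adjusted p = 0.0228). Of 12 macrophage markers, 4 were called higher (Adgre1, Marco, Cd5l and Msr1) and 0 lower, against 2.85% and 1.61% of all genes. The higher macrophage sum given above lay mostly in Lyz2 and Marco, while 3 markers (C1qa, C1qb and Timd4) had log2 changes below 0, and the median over the 12 was 0.54. With S100a16+/- replicate 3 left out, 7 were called higher and 3 lower, against 15.8% and 16.5% of all genes. The part of macrophages in the levels of Pik3r5 and Vav1 was not tested.

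Of 6 tested genes of other proteases that cut CXCL12, 2 rose, where 2.85% of all genes tested were called higher. This list too was drawn up with earlier results known. Mmp9, a gelatinase gene, had 238, 222 and 127 FPKM in S100a16+/-, against 76.0, 74.3 and 74.5 FPKM in WT (log2 change 1.44 ± 0.25, SE, edgeR adjusted p = 0.0400). Mmp14, a membrane metalloprotease gene, had 82.1, 81.6 and 83.5 FPKM in S100a16+/-, against 61.0, 62.5 and 61.5 FPKM in WT (log2 change 0.47 ± 0.06, SE, edgeR adjusted p = 0.0198). Vav1, Mmp9 and Mmp14 lost their calls when any library but S100a16+/- replicate 3 was left out, at edgeR adjusted p of 0.0862 to 0.189.

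The other lists had no gene called with all libraries. Ccrl2, a chemokine-binding receptor gene and the smallest p of 2 tested atypical receptors, was at 0.82 ± 0.20 (SE, edgeR adjusted p = 0.0866), and Rgs14, which speeds the shut-off of inhibitory G proteins, was first of 11 tested kinase and RGS genes at 0.74 ± 0.15 (SE, edgeR adjusted p = 0.0597). The chemokine gene Cxcl14 had 44.1, 47.3 and 8.13 FPKM in S100a16+/-, against 7.63, 9.22 and 7.62 FPKM in WT (log2 change 2.08 ± 0.64, SE, edgeR adjusted p = 0.136), so that replicate 3 lay within the WT range. Gna13 of 14 other G protein genes, Dtx3l of 14 sorting genes and Rela of 8 transcription factor genes had the smallest p of their lists and stood at log2 changes of 0.16, 0.63 and -0.21, none of them called (adjusted p of 0.166, 0.112 and 0.107 in edgeR). All 6 of these genes were called by edgeR without S100a16+/- replicate 3, Cxcl14 at 2.55 (adjusted p = 9.11e-05), Rgs14 at 0.87 (adjusted p = 0.00195), Ccrl2 at 0.94 (adjusted p = 0.0152), Dtx3l at 0.41 (adjusted p = 0.00693), Gna13 at 0.15 (adjusted p = 0.0379) and Rela at -0.24 (adjusted p = 0.0135). DESeq2 called all 6 with all libraries, at adjusted p of 0.000330 to 0.0421. Over all genes tested, 32.3% were called by edgeR without S100a16+/- replicate 3 and 14.8% by DESeq2. The 6 genes were picked by their p in these same libraries, so these further calls are not independent of that choice.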

How the data were processed

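Poly(A) RNA of 6 cultures was sequenced as strand-marked paired-end libraries with molecular identifiers, per the labels' protocols. Tools named without roles in the submitters' processing notes are HISAT2 2.0.4, StringTie 1.3.4d, cutadapt 1.9, edgeR, DESeq2 and UMI-tools. Genome build and use of the strand in counting: not given in the sources used here. Coordinates are as in the table, and for these genes equal those of GENCODE M21 (GRCm38).

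The authors deposited 1 table of whole-number counts and FPKM values by gene and library, per the file headers. Deposited FPKM followed count per length within 1.13% between libraries for 99% of genes checked. Overlapping genes and named Mif copies held under 0.2% of the counts of each of the 9 genes.

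The 12766 genes that reached 1 FPKM in at least 3 libraries were fitted with edgeR 4.0.16 (quasi-likelihood, TMM, genotype only, R 4.3.3), adjusted by Benjamini-Hochberg over all of them. The SE of a log2 change was its size divided by the square root of F. FPKM and 7 FPKM ratios were compared by exact two-sided permutation over 20 splits. Depth was 61979103 to 76291481 counts a library. The edgeR step was tested on simulated data. Alternatives were other scalings and filters, limma 3.58.1 on log2(FPKM + pseudocount of 0.1, 1 or 5), DESeq2 1.42.0, a replicate block and each library left out.

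The 9 genes, lists, rules and tests were chosen with earlier results of these data known. Named genes were the 9, S100a16, up to 4 called genes of each pathway list (or the 1 with the smallest p) and the 5 nearest in profile to Cxcr4, Cxcl12 and Ackr3. Marker ratios and list counts without S100a16+/- replicate 3 or WT replicate 1 were added after values were seen. The full table was used, and no protein sequence was used here.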

Additional observations from a re-analysis of the deposited data

How the results depend on the processing

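Cxcr4 kept its direction under all 17 alternatives and passed in 1, without S100a16+/- replicate 3; its log2 change ran from -1.95 to -0.86 over libraries left out. Cxcl12 kept its direction in 17 and passed under DESeq2 (-0.84) and without S100a16+/- replicate 3 (-0.64), and ran from -0.997 to -0.64 over libraries left out. Ackr3 kept its direction in 16 and its call in 10, with -1.18 to -1.07 over libraries left out; under a mean FPKM of at least 5 neither it nor Dpp4 was tested. The log2 change of Dpp4 was 0.084 without S100a16+/- replicate 1 and 0.071 without replicate 2, in a range of -0.70 to 0.084 over libraries left out. That of Arrb2 was -0.027 with library totals, -0.019, -0.019 and -0.018 in limma with pseudocounts of 1, 0.1 and 5, and -0.042 without WT replicate 3, in a range of -0.042 to 0.085 over libraries left out. Neither gene was called where its direction turned.

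Among all genes 570 were called, against 243 with no filter on low values, 1888 under DESeq2 and 25 to 4066 with a library left out. Of the calls 63.9% were higher in S100a16+/-, against 52.8% with library totals and 51.3%, 52.7% and 48.7% in limma with pseudocounts of 1, 0.1 and 5. Of the 9 genes 1 was called, against 0 with a mean FPKM of at least 5, 2 under DESeq2 and 0 to 6 with a library left out. FPKM ratios with groups apart numbered 2 of 7, and 2 to 6 with a library left out. Same-numbered libraries did not deviate together from their group means (correlations of -0.14, 0.04 and -0.05). Deviations from means of 3 libraries cannot tell whether the numbers pair them, so pairing stays unknown. With a replicate block 0 genes were called, and 0 of the 9 (2207 genes at an unadjusted p under 0.05 in that edgeR fit), with Ackr3 at -1.11 (edgeR adjusted p = 0.125), Cxcr4 at -1.41 and Cxcl12 at -0.87. The cause of these differences was not tested.

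With 3 libraries a group no permutation test can pass. A p that misses the threshold does not show that levels were alike.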

Other observations

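Arrb1 in WT replicate 1 was looked at after its values were seen. Its counts were 3443, 3402 and 4675 in S100a16+/- replicates 1 to 3, against 23020, 4709 and 5353 in WT replicates 1 to 3. Among all genes tested, Arrb1 had the largest excess of WT replicate 1 over the highest other library, at 4.61-fold in CPM + 0.5, ahead of Gm15459 at 2.98-fold. Tpbgl and Rps3, genes near Arrb1 that were picked by name, did not stand out in that library. Tpbgl had 804, 820 and 792 counts in S100a16+/-, against 709, 804 and 796 in WT, and Rps3 had 50661, 51375 and 42992 in S100a16+/-, against 57490, 68555 and 66729 in WT.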
